A study of Drosophila melanogaster with 10 samples.

Results

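The delta-class glutathione transferase genes GstD1 to GstD10 lie side by side on chromosome arm 3R, and all 10 of them were measured in SL2 cells depleted of the histone acetyltransferase Tip60. Members were taken as every probe set whose platform gene symbol, updated by Entrez identifier, is GstD1 to GstD10, which gave 10 probe sets, 1 per gene, of 11983 genes with a single-gene probe set on the array. SL2 is a macrophage-like Drosophila melanogaster line established from embryos. On 6 arrays the cells had received double-stranded RNA (dsRNA) against Tip60, with 2 arrays for each of 3 dsRNAs named by their position in the Tip60 sequence: 1321-1618, 190-807 and 603-1116, the last pair sharing 205 nucleotides. On 4 arrays they had received dsRNA against eGFP, which has no target in the fly, as a mock treatment. All cells were kept at 26°C, given 10 µg of dsRNA and harvested after 5 days, with 1 array per sample and no allele or other agent beyond the dsRNA. The comparison asks which transcripts change when Tip60 is lost. RNAi lowers a transcript without removing the gene: Tip60 itself fell to a signal of 307 ± 71.5 on the Tip60 RNAi arrays (SD, n = 6), against 1239 ± 103 on the eGFP arrays (n = 4).

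Glutathione transferases join the tripeptide glutathione to reactive, electron-poor compounds, which makes these soluble and ready for export. The delta and epsilon classes are the expanded insect classes and are known for their part in insecticide resistance. In flies several GstD genes respond to oxidative stress through the transcription factor CncC, the homolog of Nrf2, which pairs with the small Maf protein maf-S and is held back by Keap1. GstD1 is the member used most often as a reporter of that pathway, and its enzyme can break down DDT. GstD3 encodes an enzyme that lacks the start of the chain found in the other members.

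After Tip60 RNAi the cluster changed unevenly. GstD7 fell to about 51.2% of its control signal, GstD3, GstD10, GstD5, GstD2 and GstD6 rose, and GstD1, GstD9, GstD4 and GstD8 did not pass the test in either direction. Of the 10 members 5 were called higher and 1 lower at an adjusted p under 0.05 (limma, 6 arrays against 4, Benjamini-Hochberg adjustment over 11261 probe sets), while 34.5% of all probe sets tested were called, 17.8% higher and 16.7% lower. The median log2 change was 0.37 over the members and 0.077 over all probe sets tested. Log2 changes are Tip60 RNAi minus eGFP RNAi throughout. All 10 members passed the filter, a mean signal of 34.5, and none passed it only through 1 treatment.

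Values of the whole array bear on how a rise is read. The deposited signals were scaled so that every array had the same 2% trimmed mean, while the median signal lay between 78.0 and 109.5 on the Tip60 RNAi arrays and between 55.4 and 71.8 on the eGFP arrays. Spike-in controls, which have no fly target, were higher on the Tip60 RNAi arrays by 0.55 (hybridization spike-ins) and 0.75 (poly-A spike-ins) on the log2 scale. Dim probe sets moved up as a class: the median log2 change was 0.49 for signals of 34.5 to 91.1 and 0.16 for signals of 91.1 to 751, against −0.057 and −0.028 in the 2 brighter classes. Called probe sets were 2002 higher and 1883 lower as deposited, 1393 and 2724 after centring each array on its brighter probe sets, 401 and 5460 after centring it on its median, 295 and 4718 when scaled to hybridization spike-ins, and 227 and 6766 when scaled to poly-A spike-ins. Centring on brighter probe sets changes every log2 change by a constant of −0.11. The last 3 shift every log2 change down by a constant of 0.51, 0.55 or 0.75, which exceeds several of the rises below. They also move each array by its own amount, which alters the spread. The SE of GstD7, for 1, was 0.14, 0.21 and 0.17 under them, against 0.065 as deposited. Calls under these scalings therefore depend on that spread as well as on the constant. Of the hemocyte (blood cell) markers 12 of 13 were called higher and 1 lower, beside 17.8% and 16.7% of all probe sets tested. Their summed signal was 257774 to 312725 on the Tip60 RNAi arrays and 185050 to 211056 on the eGFP arrays. The rises of Pxn, NimC1 and atilla exceeded the poly-A constant of 0.75, and the other called rises did not. The part of these markers in the changes below was not tested. Of the 3 fat body, 3 neuron and 2 muscle markers measured, 1, 2 and 0 passed the filter, and of these 1 was called, brp, higher. Markers of midgut and Malpighian tubule summed to 28.9 to 110 after Tip60 RNAi and 24.0 to 176 after eGFP RNAi, with 3 of 3 below the filter level in the controls. In bulk RNA, fewer cells of a type and less RNA per cell cannot be told apart.

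GstD7 was the member that fell. Its signal was 1546 at the lowest, 1564 at the median and 1613 at the highest of the 6 Tip60 RNAi arrays, against 2913, 2817, 3458 and 3100 on the 4 eGFP arrays. The groups were well apart, and the Tip60 RNAi arrays spanned a narrow range whichever dsRNA was used. The mean was 1573 ± 27.3 (SD, n = 6) after Tip60 RNAi and 3072 ± 283 (n = 4) after eGFP RNAi, a log2 change of −0.96 (SE 0.065, 95% interval −1.10 to −0.82, adjusted p = 1.35e-08). By size it stood at rank 40 among the 1883 probe sets called lower, and it was the 1 member among the 2.58% of probe sets called lower by at least 1.5-fold. Its call was kept under each of the 28 other settings tried, with log2 changes from −1.71 to −0.87.

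GstD3 rose. The Tip60 RNAi arrays gave 8525 at the lowest, 10612 at the median and 10852 at the highest, against 6184, 6559, 6374 and 7013 on the eGFP arrays. No Tip60 RNAi array reached down to the controls, and the lowest of them was replicate 2 of dsRNA 190-807. The means were 10177 ± 913 (SD, n = 6) after Tip60 RNAi and 6532 ± 355 (n = 4) after eGFP RNAi, with a log2 change of 0.64 (SE 0.072, adjusted p = 4.42e-06). It was 0.13, 0.089 and −0.11 under the median, hybridization and poly-A scalings, with no call under these 3 (adjusted p = 0.418, 0.731 and 0.580). GstD3 was among the 3 members in the brightest class of probe sets, where the median log2 change was −0.028.

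GstD5, in the second brightest class, rose as well. It gave 1162 at the lowest, 1258 at the median and 1535 at the highest of the Tip60 RNAi arrays, against 900, 927, 984 and 877 on the eGFP arrays. Again the groups did not overlap. The log2 change was 0.47 (SE 0.085, adjusted p = 0.000361), and −0.032, −0.074 and −0.28 under the same 3 scalings, with no call. GstD3 and GstD5 were the 2 members with all Tip60 RNAi arrays above all eGFP arrays, and GstD7 the 1 with all of them below. Of all probe sets tested, 12.4% were separated upwards and 13.1% downwards.

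**Figure D1:**
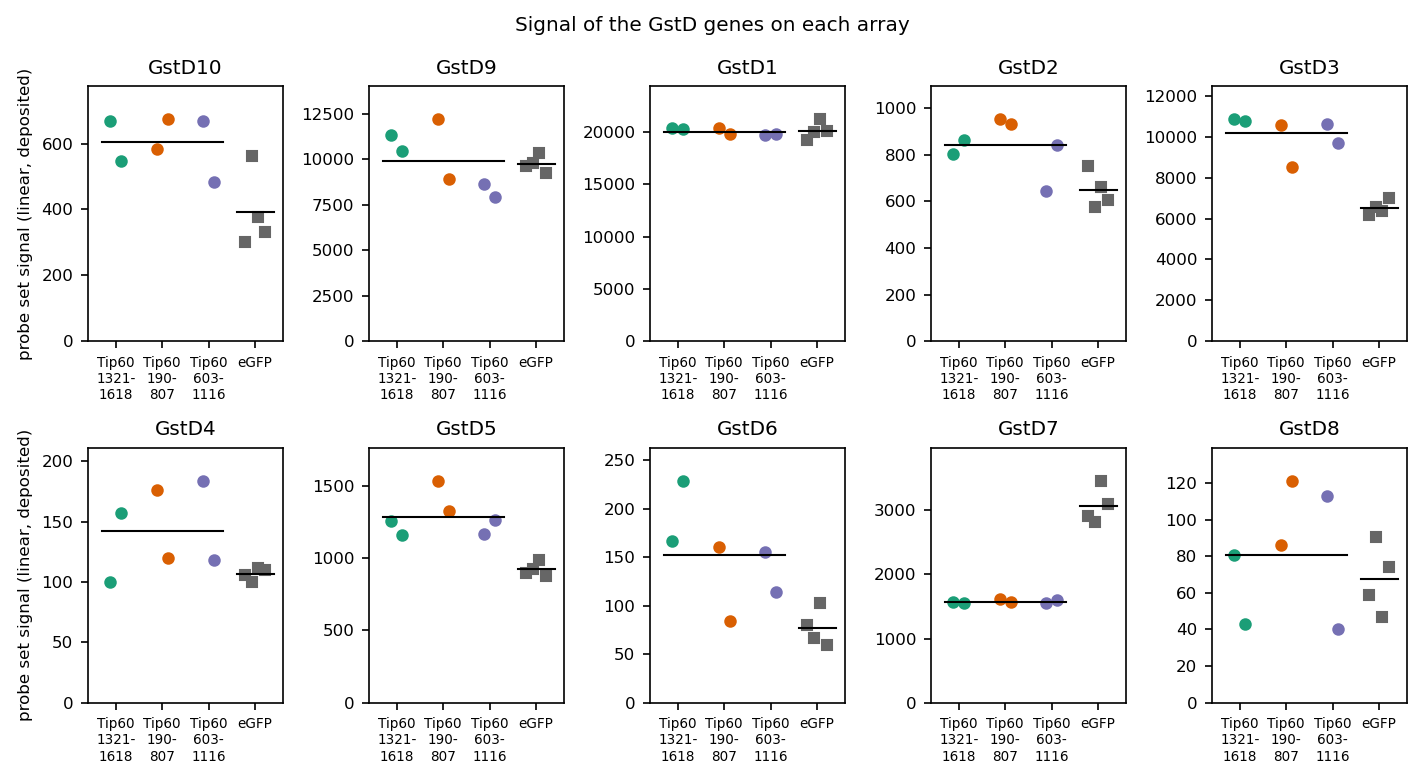
Deposited linear signal (vertical axis, from 0, a scale of its own for each gene) of the 10 GstD genes on each array, in chromosomal order. Circles are the Tip60 RNAi arrays by dsRNA, squares the eGFP arrays, and the lines the means of the 6 and 4 arrays. The GstD7 points lie at 1546 to 1613 after Tip60 RNAi and at 2817 to 3458 after eGFP RNAi, and GstD1 lies between 19209 and 21237 on all arrays.

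GstD10, GstD2 and GstD6 were called higher with groups that overlapped. GstD10 gave 482 at the lowest, 626 at the median and 674 at the highest of the Tip60 RNAi arrays, against 300.1, 561, 378 and 331 on the eGFP arrays. The eGFP array of 561, replicate 2-2, lay above 2 of the Tip60 RNAi arrays and the other controls lay below all of them. Its log2 change was 0.65 (SE 0.16, adjusted p = 0.00405). Under the same 3 scalings it was 0.15, 0.11 and −0.096, with no call (adjusted p = 0.489, 0.725 and 0.693). Its call was also lost without the eGFP 3 pair of arrays (adjusted p = 0.0725), a setting added after the data were seen.

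GstD2 gave 646 at the lowest, 854 at the median and 952 at the highest of the Tip60 RNAi arrays, against 750.4, 577, 661 and 606 on the eGFP arrays. The lowest Tip60 RNAi array, replicate 1 of dsRNA 603-1116, fell among the controls. The log2 change of 0.37 (SE 0.11, adjusted p = 0.0184) was 0.26 without a call after centring on brighter probe sets (adjusted p = 0.113), and −0.14, −0.18 and −0.38 under the median, hybridization and poly-A scalings. Without eGFP replicate 2-2 or 3-2 the call was lost (adjusted p = 0.0675 and 0.0536). It was lost too after quantile normalization (0.0506) and without both arrays of dsRNA 190-807 (0.0789). Leaving out the eGFP 2 or eGFP 3 arrays, settings added after the data were seen, also ended it (0.0584 and 0.124).

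GstD6 had the largest point estimate of the rises and the least certain one. Its signals were 84.7 at the lowest, 158 at the median and 229 at the highest of the Tip60 RNAi arrays, against 80.4, 66.4, 103 and 59.2 on the eGFP arrays. The eGFP array of 103, replicate 3-1, lay above 1 Tip60 RNAi array, and both groups were close to the dimmest class. The log2 change was 0.94 (SE 0.30, 95% interval 0.30 to 1.58, adjusted p = 0.0231). It stayed above 0 under all 6 other scalings, at 0.19 to 0.83, but was called under 1 of them, the centring on brighter probe sets. The adjusted p was 0.255 after quantile normalization and 0.214 after cyclic loess. The call was also lost without eGFP replicate 2-2 (0.0578) or 3-2 (0.0654) or replicate 2 of dsRNA 1321-1618 (0.0541). It was lost too without both arrays of dsRNA 1321-1618 (0.1203) and with no filter on low signals (0.0502). Leaving out the eGFP 2 or eGFP 3 arrays, settings added after the data were seen, also ended it (0.124 and 0.0730). In all, the call was kept in 15 of 27 other settings.

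GstD1 and GstD9 showed no change that passed the test. GstD1 gave 19711 at the lowest, 20049 at the median and 20401 at the highest of the Tip60 RNAi arrays, against 19209, 19994, 21237 and 20152 on the eGFP arrays. The Tip60 RNAi arrays lay inside the range of the controls. The log2 change was −0.0055, with a 95% interval of −0.12 to 0.11 (adjusted p = 0.951). With the median, hybridization and poly-A scalings GstD1 became a called fall of −0.51, −0.55 and −0.76, by the constants of those scalings alone.

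GstD9 spread more widely, with 7954 at the lowest, 9711 at the median and 12209 at the highest of the Tip60 RNAi arrays, against 9650, 9828, 10380 and 9235 on the eGFP arrays. The Tip60 RNAi arrays lay on both sides of the controls. The log2 change was 0.0070 with a 95% interval of −0.21 to 0.22 (adjusted p = 0.966), and −0.50, −0.54 and −0.74 as a called fall under the 3 scalings by a constant just named.

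GstD4 and GstD8, both dim, were not called and their intervals are wide. GstD4 lay between 100.1 and 184 on the Tip60 RNAi arrays and between 100.4 and 112 on the eGFP arrays (log2 change 0.38, 95% interval −0.13 to 0.89, adjusted p = 0.249). GstD8 lay between 40.4 and 121 on the Tip60 RNAi arrays and between 46.9 and 90.3 on the eGFP arrays (log2 change 0.17, 95% interval −0.70 to 1.04, adjusted p = 0.784). Both intervals hold 0 as well as the change found for GstD3.

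A scaling by a constant drops out of a ratio within an array. Each array was therefore also expressed relative to its own GstD1 signal and all other probe sets were tested again (limma, adjusted over 11260 probe sets). Of the 9 remaining members 5 were higher and 1 was lower relative to GstD1. Of all probe sets 15.9% were called higher and 13.6% lower. GstD1 itself changed by −0.0055 as deposited, so changes relative to it lie close to those of the main fit on the same arrays. They are not a second, independent test. GstD7 changed by −0.96 relative to GstD1 (SE 0.055, adjusted p = 6.97e-06), GstD3 by 0.64 (SE 0.079, adjusted p = 0.000414) and GstD5 by 0.48 (SE 0.081, adjusted p = 0.00227). These 3 kept their calls in all 10 fits that left out 1 array. GstD6 (0.94, adjusted p = 0.0226), GstD10 (0.66, adjusted p = 0.0199) and GstD2 (0.37, adjusted p = 0.0472) were also higher, but GstD2 lost its call in 8 of those fits, GstD10 in 3 and GstD6 in 2. With the array pairs as a random block 4 members were higher, GstD2 having lost its call. GstD4, uncalled at 0.39, was called when replicate 1 of dsRNA 1321-1618 was left out. GstD9 changed by 0.012 relative to GstD1, with a 95% interval of −0.25 to 0.27. As a description of the most unequal bright members, chosen after their values were seen, the log2 ratio of GstD3 to GstD7 was 2.44 to 2.80 within the Tip60 RNAi arrays and 0.88 to 1.22 within the eGFP arrays, a difference of 1.60 that no scaling by a constant alters.

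**Figure D2:**
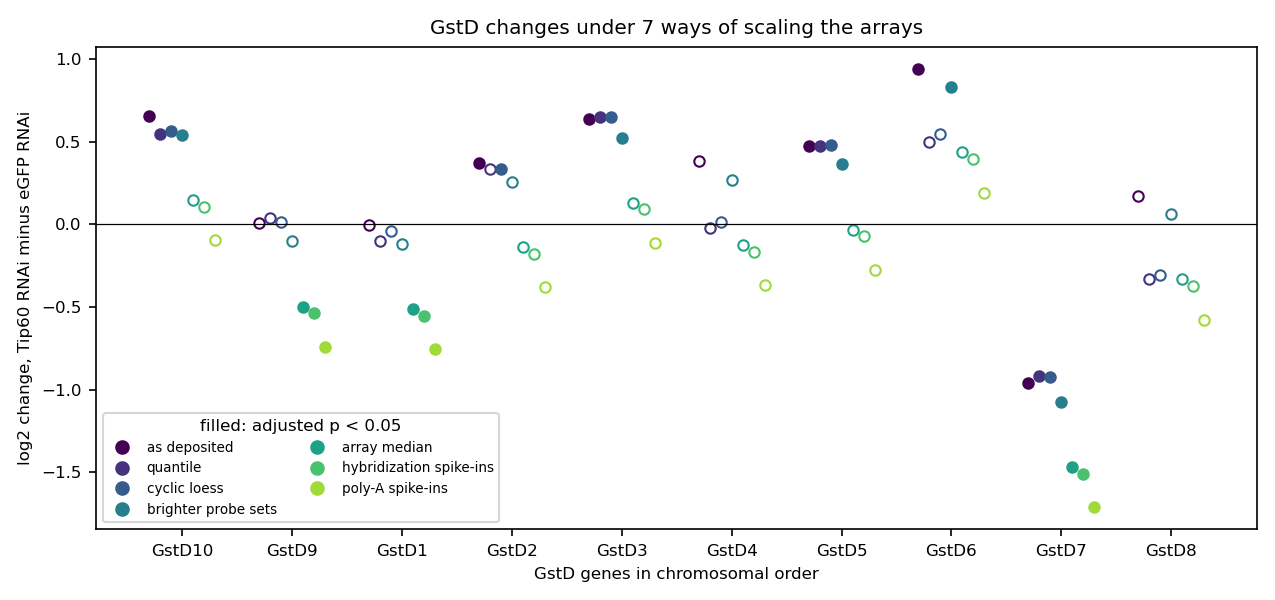
Log2 change (Tip60 RNAi minus eGFP RNAi) of each GstD gene as deposited and under 6 other ways of scaling the arrays, with filled circles where the adjusted p was under 0.05. GstD7 is filled and below 0 under all 7, from −1.71 to −0.92, while GstD3 runs from −0.11 to 0.65 and GstD1 from −0.76 to −0.0055.

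The 3 dsRNAs gave GstD7 changes of nearly equal size. Its log2 change against eGFP was −0.98 with dsRNA 1321-1618, −0.95 with dsRNA 190-807 and −0.96 with dsRNA 603-1116 (SE 0.089 each, adjusted p = 2.66e-06, 4.54e-06 and 3.28e-06 in limma's fit of 4 group means). The 95% intervals of the differences between dsRNAs lay within −0.25 and 0.24. GstD3 changed by 0.73, 0.54 and 0.64 with the same dsRNAs in that order, and GstD5 by 0.39, 0.63 and 0.40, all called.

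With dsRNA 1321-1618, 4 members were called higher (GstD3, GstD5, GstD6 and GstD10) and GstD7 lower, while 11.1% of all probe sets were called higher and 12.6% lower. With dsRNA 190-807, 4 were called higher (GstD2, GstD3, GstD5 and GstD10) and GstD7 lower, while 10.9% and 11.3% of all probe sets were. With dsRNA 603-1116, 2 were called higher (GstD3 and GstD5) and GstD7 lower, while 13.5% and 13.7% of all probe sets were. These 3 comparisons share the 4 eGFP arrays. Leaving out 1 of the 2 arrays of a dsRNA left as few as 1, 2 and 1 members called higher with dsRNAs 1321-1618, 190-807 and 603-1116. Calls in 1 comparison and not in another do not show that the dsRNAs differ: the F-test of any difference among the 3 gave an adjusted p of at least 0.421 for each of the 10 members, while it called 0.0355% of all probe sets.

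**Figure D3:**
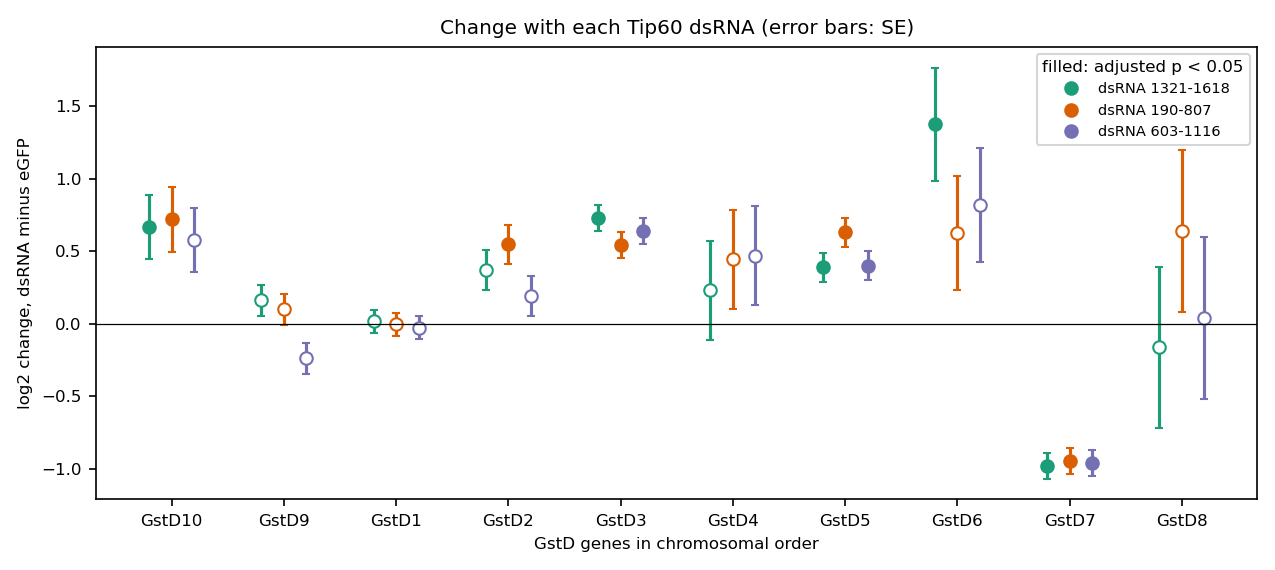
Log2 change of each GstD gene with each Tip60 dsRNA against the 4 eGFP arrays, with bars for the SE and filled circles where the adjusted p was under 0.05. GstD7 lies at −0.98, −0.95 and −0.96 with the 3 dsRNAs, and GstD9 at 0.16, 0.10 and −0.24, all 3 open.

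In the order of the RefSeq gene table the members run GstD10, GstD9, GstD1, GstD2, GstD3, GstD4, GstD5, GstD6, GstD7, GstD8. The uncalled GstD9 and GstD1 stand between the called rises of GstD10 and GstD2, and GstD7 stands between GstD6 and the uncalled GstD8. Of the 16 protein-coding genes next to the cluster, 8 on each side, 8 had a single-gene probe set and 5 passed the filter, and 0 of them were called by limma, with 0 at an unadjusted p under 0.05 and a smallest unadjusted p of 0.0647. Log2 changes were 0.23 for CG10013 (adjusted p = 0.786), 0.11 for CG10041 (0.700), 1.14 for GstD11 (0.141), −0.70 for Sol1 (0.459) and −0.59 for CG33098 (0.537). All 5 are dim, with mean signals of 36.7 to 204 after Tip60 RNAi and 32.7 to 188 after eGFP RNAi. The other Sol1 probe sets, below the filter, went the other way. Their means were 43.8 and 13.6 after Tip60 RNAi, against 18.0 and 8.81 after eGFP RNAi. Of all probe sets tested 34.5% were called, while in the dimmest class (signals of 34.5 to 91.1) 9.20% were called higher and 0.355% lower. The absence of calls among these 5 therefore says little about the neighbours. GstD11, the remaining delta-class gene, lay at 79.3 ± 36.7 (SD, n = 6) and 32.7 ± 13.3 (n = 4). CG4066, CG4115 and Tim17a1, on the GstD10 side, were below the filter.

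**Figure D4:**
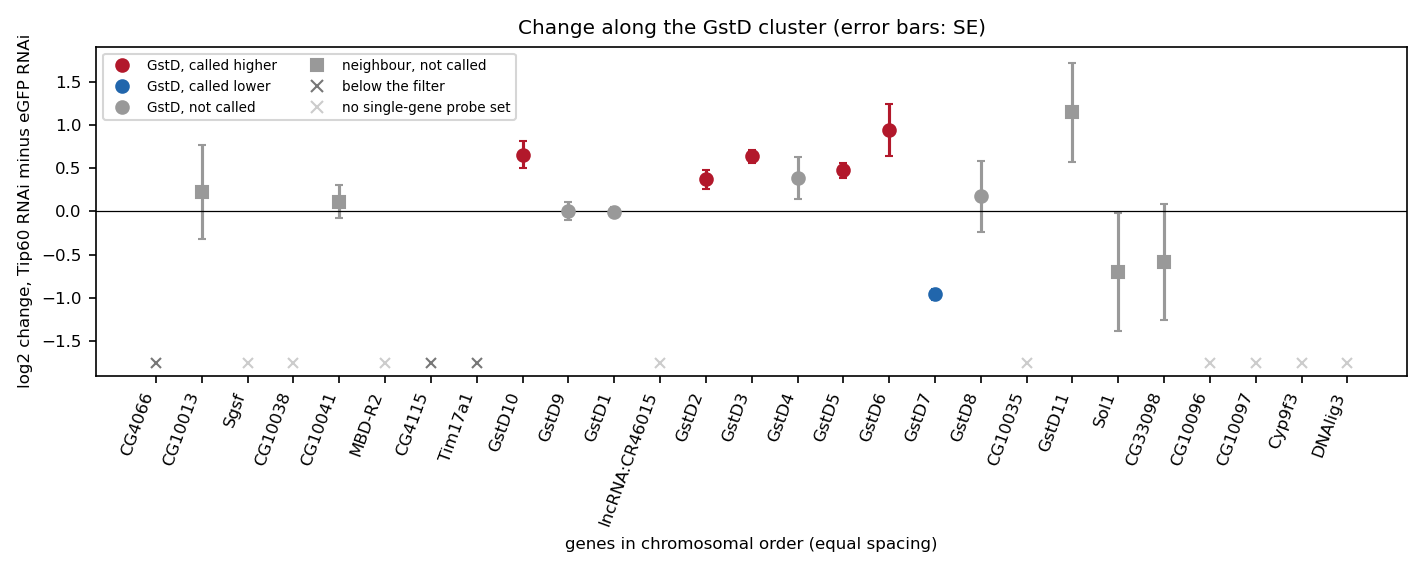
Log2 change (Tip60 RNAi minus eGFP RNAi, bars for the SE) of the GstD genes (circles) and their neighbours (squares) in chromosomal order at equal spacing, with crosses for genes not tested. GstD7 at −0.96 is the 1 called fall, next to the called rise of GstD6 at 0.94.

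Among the other glutathione transferases more genes fell than rose. Of 26 measured, 23 passed the filter, 10 were called lower and 2 higher, while 16.7% of all probe sets tested were called lower and 17.8% higher. Their median log2 change was −0.09, against 0.077 over all probe sets. All 4 theta-class genes fell: GstT3 by 0.55 on the log2 scale, GstT1 by 0.51, GstT4 by 0.49 and GstT2 by 0.28. GstT1 gave 7473 ± 347 after Tip60 RNAi (SD, n = 6) and 10637 ± 724 after eGFP RNAi (n = 4). Of the 12 epsilon-class genes tested 5 fell, GstE3 by 0.51, GstE11 by 0.44, GstE9 by 0.32, GstE12 by 0.22 and GstE13 by 0.20, and 0 rose. Mgstl, a membrane-bound transferase, fell by 0.53 in its brighter probe set. Its other tested probe set, a dim one, went the other way, with means of 73.4 after Tip60 RNAi and 27.4 after eGFP RNAi. With each gene taken by its brightest probe set, no scaling turned any of these 10 falls, and GstE13 lost its call after quantile normalization.

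The 2 rises were GstO3 and GstS1. GstO3, of the omega class, gave 17571 ± 980 (SD, n = 6) after Tip60 RNAi and 9426 ± 193 (n = 4) after eGFP RNAi (log2 change 0.90, SE 0.059, adjusted p = 8.03e-09), and lay between 0.15 and 0.89 under the 6 other scalings. It kept its call under the median scaling (0.39) and lost it under the hybridization (0.35, adjusted p = 0.0890) and poly-A scalings (0.15, adjusted p = 0.469). GstS1, the sigma-class enzyme that conjugates products of lipid oxidation, rose by 0.57 on the log2 scale (adjusted p = 0.000953), and was 0.063, 0.021 and −0.18 under the median, hybridization and poly-A scalings, with no call. Whether the GstD genes as a group differ from these classes was not tested.

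**Figure D5:**
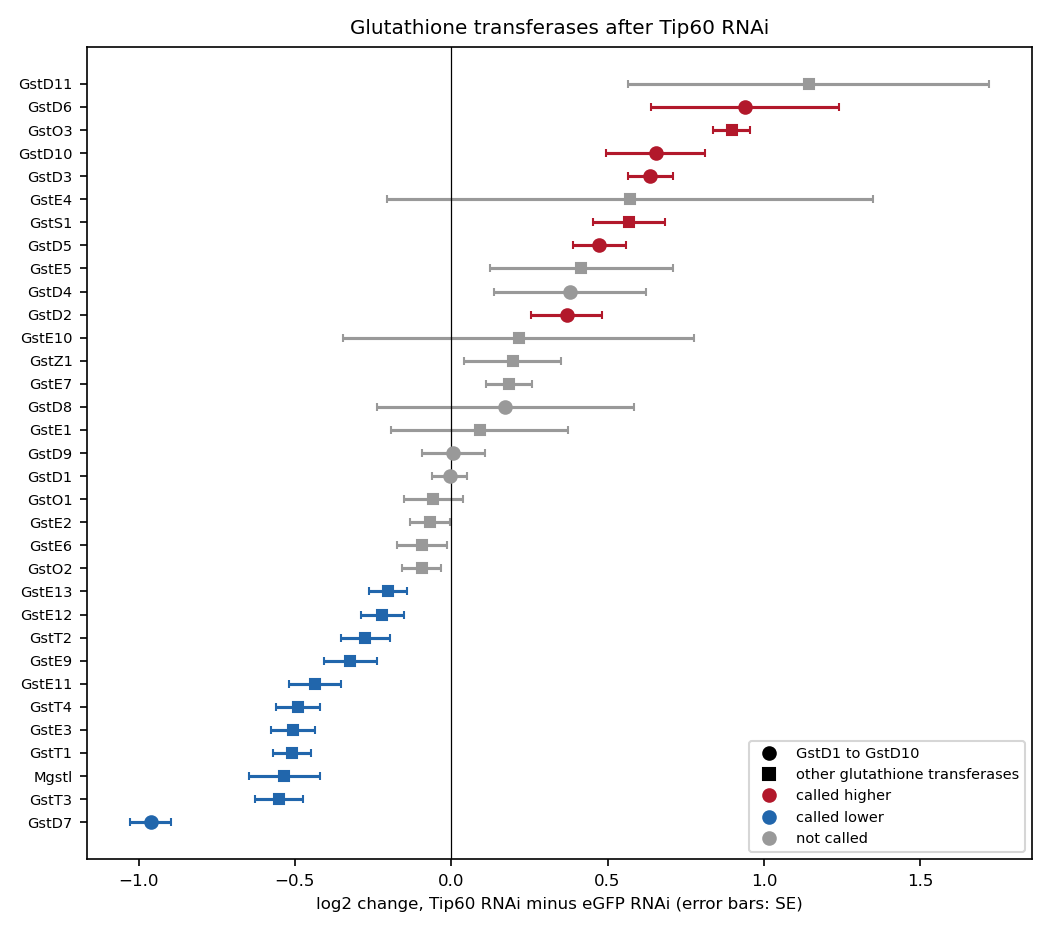
Log2 change (Tip60 RNAi minus eGFP RNAi, horizontal axis, bars for the SE) of the 10 GstD genes (circles) and of the 23 other glutathione transferases tested (squares), ordered by size. GstD7 at −0.96 has the lowest value of all, below GstT3 at −0.55, and the upper end holds GstD11 at 1.14, uncalled with a wide bar, GstD6 at 0.94 and GstO3 at 0.90.

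Counts of calls among the genes that supply glutathione and control the response were small and lay near the shares over the whole array. Gclc, the catalytic subunit of the ligase that starts glutathione synthesis, rose to 6990 ± 323 (SD, n = 6) after Tip60 RNAi, against 4572 ± 186 (n = 4) after eGFP RNAi (log2 change 0.61, SE 0.056, adjusted p = 4.47e-07), and was 0.11, 0.065 and −0.14 under the median, hybridization and poly-A scalings, with no call. Its modifier subunit Gclm, a dim probe set, had a log2 change of 0.62 without a call (adjusted p = 0.0521). Of the 10 genes of glutathione synthesis and thiol redox tested 1 was called higher and 2 lower, beside 17.8% and 16.7% of all probe sets. Trxr1, the reductase that recycles thioredoxin, fell by 0.21 and the thioredoxin-like gene Txl by 0.27.

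Among 10 tested genes of the Keap1-CncC pathway and xenobiotic regulators 2 were called higher and 2 lower, again close to the 17.8% and 16.7% of all probe sets. cnc, which encodes CncC among other isoforms, had a log2 change of 0.13 (adjusted p = 0.507) and Keap1 one of 0.27 (adjusted p = 0.0730). maf-S, the partner of CncC, fell by 0.29 and tgo, the shared partner of several sensor proteins, by 0.33 on the log2 scale. The autophagy receptor gene ref(2)P rose by 0.39 and the nuclear receptor gene Hr96 by 0.21, and both were negative under the median, hybridization and poly-A scalings and called lower under the poly-A one. Hr96 also had no call after centring on brighter probe sets.

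Of 11 antioxidant enzyme genes tested 5 were called lower and 2 higher, beside 16.7% and 17.8% of all probe sets. The mitochondrial superoxide dismutase gene Sod2 fell by 0.55 on the log2 scale, the methionine sulfoxide reductase gene SelR by 0.53 and dj-1beta by 0.47. The catalase-like gene Irc rose by 0.25 and the glutathione peroxidase homolog Gtpx by 0.23. Both lost their calls after centring on brighter probe sets, were negative under the median, hybridization and poly-A scalings, and were called lower under the poly-A one (adjusted p = 0.00538 for Irc and 0.00512 for Gtpx). Gtpx was also 0.040 without a call after quantile normalization (adjusted p = 0.624). Among 19 tested UDP-glycosyltransferases, another family that conjugates foreign compounds, Ugt37D1 rose by 0.93 and Ugt302C1 fell by 0.26, and the remaining 17 were not called. Ugt37D1 was 0.42 with a call under the median scaling, and had no call under the hybridization (0.38, adjusted p = 0.144) and poly-A scalings (0.18, adjusted p = 0.378).

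The probe sets most like GstD7 over the 10 arrays, by Pearson's r of log2 signal, were those of NHP2 (r = 0.993), CG6180 (0.989) and EMC4 (0.987). NHP2 is a protein of small nucleolar RNA particles and EMC4 a subunit of a membrane insertion complex. Their log2 changes were −0.78, −0.62 and −0.76. Those most like GstD6, the called rise of largest size, were Mct1 (r = 0.951), Oat (0.951) and CG14629 (0.945), with changes of 0.62, 0.18 and 0.45, the middle one without a call. These coefficients mix the difference between the 2 treatments with the spread of arrays within each treatment. The share of each was not computed, and the coefficients are given as a description.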

How the data were processed

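RNA of SL2 cells was measured on 10 Affymetrix arrays, 6 Tip60 RNAi and 4 eGFP RNAi, grouped by the sample labels. The authors deposited linear signal intensities, 1 per probe set, made with GCOS 1.4 per the submitters' processing notes. Sources used here do not state the background correction or probe summary. The 2% trimmed mean is 1000 on every array, so changes are relative to it. No depth applies to arrays: their number limits the precision. The labels name neither a batch nor separate cultures, so each p-value reflects only array-to-array spread, possibly technical.

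Of 18952 probe sets 183 controls were left out, and of 18769 fly probe sets those whose mean log2 signal lay under the 40th percentile, leaving 11261. Signals were taken as log2 without a pseudocount and fitted with limma 3.58.1 in R 4.3.3 (lmFit, eBayes with intensity trend; no trend relative to GstD1), with Benjamini-Hochberg adjustment over all tested. Names came from the platform annotation, matched through Entrez identifiers to RefSeq's table for Release 6 plus ISO1 MT (13544 of 13647 single-gene probe sets matched) and coordinates are left out because the array's own build is not stated. Sequences were not used here, so cross-binding between these related genes was not examined; all 10 probe set names end in a plain _at, the maker's mark for a set designed to 1 transcript. A listed gene with several probe sets was represented by the brightest. The members, lists and alternatives were chosen with earlier results of these data known. The text names all members, called genes of the transferase, glutathione and Keap1-CncC lists, up to 3 called each way from the others, tested neighbours, and 3 probe sets most like the largest called rise and fall. The fits were tested on simulated data.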

Additional observations from a re-analysis of the deposited data

Results flagged for a closer look

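GstD9 lay on opposite sides of the eGFP arrays with different dsRNAs, with no change that passed the test. With dsRNA 1321-1618 it gave 11368 and 10471, both above all 4 eGFP arrays (9235 to 10380), and with dsRNA 603-1116 it gave 8623 and 7954, both below all of them. The log2 changes against eGFP were 0.16 (adjusted p = 0.316) and −0.24 (adjusted p = 0.114) in limma's fit of 4 group means. With dsRNA 190-807 the arrays lay apart, at 12209 and 8951. The difference between dsRNAs 1321-1618 and 603-1116 was 0.40 (95% interval 0.14 to 0.66), with an unadjusted p of 0.00577 and an adjusted p of 0.568 over all probe sets tested, and the F-test among the 3 dsRNAs gave 0.0122 unadjusted and 0.421 adjusted. The difference therefore failed the correction. No other member had 1 dsRNA above and another below all eGFP arrays. In 20 groups (10 members, Tip60 RNAi and eGFP arrays each), 0 had a sample far enough from the others to pass Dixon's 95% limit, where chance passes about 1 in 20.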

How the results depend on the processing

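GstD7 kept its fall and GstD4 and GstD8 stayed uncalled under every setting tried on the main comparison (GstD7 28 settings, GstD4 and GstD8 27 each). GstD4, GstD6 and GstD8 were not tested under the stricter filter, and their intervals are the widest of the members. No paired analysis was possible because the replicate numbers of the dsRNAs only name arrays and do not pair them with eGFP arrays; treating the 5 array pairs as a random block, or averaging them, changed no member's call in the main comparison; relative to GstD1 the block left 4 of 5 higher, without GstD2.

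Members called higher (5) numbered 3 after quantile normalization and 0 with the median, hybridization and poly-A scalings. Without the eGFP 2 and eGFP 3 arrays (added after seeing the data) they numbered 3 and 2. Of all 11261 probe sets tested 2002 were called higher as deposited and 1524 after quantile normalization. Without those eGFP arrays 1379 and 1406 were called higher. Members called lower (1) numbered 3 under each of the 3 scalings. Called lower among all probe sets were 1883 as deposited, and 5460, 4718 and 6766 under the 3 scalings. Under those, in that order, log2 changes were −0.14, −0.18 and −0.38 for GstD2, −0.032, −0.074 and −0.28 for GstD5, −0.50, −0.54 and −0.74 for GstD9, and with the poly-A scaling −0.11 for GstD3 and −0.096 for GstD10, by the constants alone. Leaving out 1 array left 3 to 5 members higher (3 without eGFP replicate 2-2 or 3-2) and 1 lower. Relative to GstD1, 5 higher became 3 after cyclic loess, 2 without dsRNA 1321-1618, 3 without dsRNA 190-807, 3 and 2 without the eGFP 2 and 3 arrays, and 2 to 5 without 1 array (3, 3 and 2 without eGFP replicates 2-2, 3-1 and 3-2), with 1 lower throughout.

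By dsRNA, members higher under the 3 scalings were 0, and members lower were 3 (dsRNA 1321-1618, poly-A), 2 and 3 (190-807, median and poly-A) and 4, 3 and 5 (603-1116). dsRNA 1321-1618 had 2 higher after quantile normalization or cyclic loess, and dsRNA 603-1116 1 higher and 2 lower with brighter probe sets. Without 1 array, 1 to 4, 2 to 4 and 1 to 3 members were higher, and 1, 1 and 1 to 2 lower.

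List counts are given as other transferases, glutathione and thiol genes, antioxidant enzymes, Keap1-CncC genes and UDP-glycosyltransferases. As deposited 2, 1, 2, 2 and 1 were higher and 10, 2, 5, 2 and 1 lower. With the median scaling 1, 0, 0, 0 and 1 were higher and 14, 5, 8, 4 and 6 lower, with the hybridization spike-ins 0 of each higher and 14, 4, 8, 3 and 4 lower, and with the poly-A spike-ins 0 higher and 17, 5, 11, 9 and 7 lower. Of all 11261 probe sets tested 5460, 4718 and 6766 were called lower under these 3 scalings, against 1883 as deposited. Brighter probe sets gave 0 antioxidant and 1 Keap1-CncC gene higher and 3 UDP-glycosyltransferases lower. Quantile normalization gave 1 antioxidant gene higher. UDP-glycosyltransferases higher numbered 2 after quantile normalization or cyclic loess, with the stricter filter, with 4 group means and without any 1 dsRNA. Without a filter or without an intensity trend 1 Keap1-CncC gene was higher. Averaged pairs, and leaving out dsRNA 1321-1618 or 190-807, gave 2 glutathione and thiol genes higher. Without dsRNA 190-807 or 603-1116 1 antioxidant gene was higher, and without 603-1116 1 Keap1-CncC gene. Without the eGFP 2 arrays 0 antioxidant and 1 Keap1-CncC gene were higher, and 0 glutathione and thiol genes, 1 Keap1-CncC gene and 2 UDP-glycosyltransferases lower. Without the eGFP 3 arrays 3 antioxidant, 1 glutathione and thiol gene and 0 UDP-glycosyltransferases were lower. Leaving out 1 array gave 2 to 3, 1 to 2, 1 to 2, 1 to 3 and 1 to 2 higher, and 8 to 10, 2, 3 to 6, 2 and 1 lower. Beyond the scalings by a constant, the cause was not tested.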
